A study of Mus musculus with 4 samples.

Results

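DNA methylation is written, copied, read and removed by a small set of proteins, and 9 of their genes were followed in CD4 single-positive thymocytes, the T cell precursors that have chosen the CD4 lineage. They are Uhrf1, Uhrf2, Dnmt1, Dnmt3a, Dnmt3b, Tet1, Tet2, Tet3 and Mbd2. All 23 probe sets that the platform annotation gives to exactly 1 of these symbols were used, of 34945 single-gene probe sets on the array. All 23 probe sets, and so all 9 of the 18193 named genes, lay above background on all 4 arrays. The list grew from Uhrf1, which had passed the threshold in an earlier analysis of the same arrays. Its difference between the groups is therefore given as a description, without a test, and the other 8 genes were added for what they do.

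The study compared 2 genotypes of B6 mice, each with 2 arrays. LM mice carry floxed Cul3 alleles and no CD4-Cre transgene (CD4 Cre-Cul3fl/fl), and KO mice carry the same floxed alleles with the transgene (CD4 Cre+Cul3fl/fl). Both groups therefore share the floxed alleles, and the transgene alone sets them apart. Cells were sorted without CD25, without staining by the CD1d-PBS57 tetramer, which marks NKT cells, and without the gamma delta T cell receptor. Cre driven by CD4 regulatory elements acts on the whole alpha beta T cell lineage from the double-positive stage on, and no group carried Cre without floxed Cul3. The age of the mice, and whether arrays of a group came from separate animals, are not given in the labels, so p-values rest on a spread between arrays that could be technical.

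DNA methylation in mammals sits mainly on cytosines that precede a guanine, on both strands. After replication only the old strand carries the mark. Uhrf1 binds such half-methylated sites and brings the methyltransferase Dnmt1, which copies the mark to the new strand. Dnmt3a and Dnmt3b place new marks, Tet1, Tet2 and Tet3 oxidise methylcytosine as a step toward its removal, and Mbd2 binds methylated sites and recruits the NuRD repressor complex. Uhrf1 and Dnmt1 act together at replication forks, which raises the question whether their RNA levels also differ together between the genotypes.

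Promoter letters were examined for Uhrf1 and Dnmt1, since both are active in S phase and E2F factors control many S-phase genes. Windows from 250 bases before to 50 after each annotated RefSeq start (GRCm38.p6) were searched on both strands for the E2F words TTTCCCGC, TTTCGCGC, TTTGCCGC and TTTGGCGC. The windows of 8 of the 9 genes could be searched, and a word was found for 2 of them, Uhrf1 and Dnmt1. Of 27025 genes with a window, 2.60% held a word, and so did 12 of 29 genes of DNA replication and S phase (41.4%) and 1 of 17 mitosis genes (5.88%). The 3 matches are printed because no other member held a word, with the word, or its reverse complement, in capitals. The Uhrf1 match lies on the plus strand at chr17:56304117-56304146, with the first base of the word 185 bases before the annotated start. The Dnmt1 matches lie on the minus strand at chr9:20952824-20952853, before the start, and chr9:20952574-20952603, just after it.

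Uhrf1, TTTCGCGC: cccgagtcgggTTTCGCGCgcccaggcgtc

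Dnmt1, TTTCGCGC as its reverse complement: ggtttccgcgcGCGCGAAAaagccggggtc

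Dnmt1, TTTGGCGC: gcgcggggcagcgTTTGGCGCgggctgtgc

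One of the 2 windows of Uhrf1 and 1 of the 3 windows of Dnmt1 held a match, and each of these windows had 33 CpG dinucleotides, against a median of 7 over all 32851 windows and of 28 over the 13 windows of members. Windows without a word reached more, with 57 for Tet2 and 46 and 47 for Dnmt3a. A match describes letters and not binding.

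Each probe set is a group of short probes on the array, read as 1 signal, and signals given for it are those deposited. Differences are KO minus LM on a quantile normalized log2(signal + 16) scale, from limma, a linear model fitted to all 11255 genes above background on at least 2 arrays. Each gene is represented there by its brightest probe set, p-values are adjusted over all genes with a threshold of 0.05, and whether groups overlap is read on the normalized scale. Correlations between arrays over the genes tested ran from 0.961 to 0.974. The targeted gene Cul3 was examined first. Its brightest probe set read 5333 and 5724 in LM, against 5380 and 5577 on the arrays labelled KO, and its log2 difference was -0.01 ± 0.09 (SE, limma adjusted p = 0.994). None of its 5 probe sets passed the threshold, with differences from -0.15 to 0.31. Where these probe sets lie relative to the deleted part was not given in the sources used here. Probe sets that miss the deleted exons cannot check the deletion, so the genotype rests on the labels. The defining markers Cd4, Cd3e, Cd3g, Cd3d and Zbtb7b were above background on all 4 arrays. Of the B cell markers, Cd79b, Ms4a1 and Pax5 were below it on all 4. Cd79a was above it on 3 arrays and Blnk on LM replicate 2. The myeloid marker Cd68 and the epithelial marker Epcam were above it on all 4. Of the other myeloid markers, Lyz2 and Csf1r were above it on 2 arrays each and Itgam on KO replicate 2. Itgax and Adgre1 (myeloid) and Krt8, Krt5, Foxn1 and Psmb11 (epithelial) were below it on all 4. In bulk RNA, fewer cells of a type and less RNA per cell cannot be told apart.

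Uhrf1 was the member with the largest difference, and it was lower on the arrays labelled KO in both of its probe sets. Its brightest probe set, 1415811_at, read 1091 and 993 in LM, against 488 and 470 on the arrays labelled KO. The groups did not overlap, and the arrays within each group lay close together. On the normalized log2 scale its mean was 10.04 ± 0.09 on the LM arrays and 8.95 ± 0.05 on the arrays labelled KO (SD, n = 2 each), a difference of -1.09 ± 0.19 (SE). The signal on the arrays labelled KO was thus 47.0% of that on the LM arrays. Its second probe set, 1415810_at, read 579 and 866 in LM, against 459 and 530 on the arrays labelled KO. Here too the groups did not overlap, but LM replicate 1 lay close to KO replicate 2 and the difference was smaller, at -0.50 ± 0.24 on the log2 scale. Averaging both probe sets gave -0.79, and leaving out 1 array at a time gave -1.14 to -1.04 for the brightest. The adjusted p that put Uhrf1 on the list was 0.0398, next to 0.0429 for Rab4a just inside the threshold of 0.05 and 0.0515 for Hmgb2 just outside it.

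**Figure D1:**
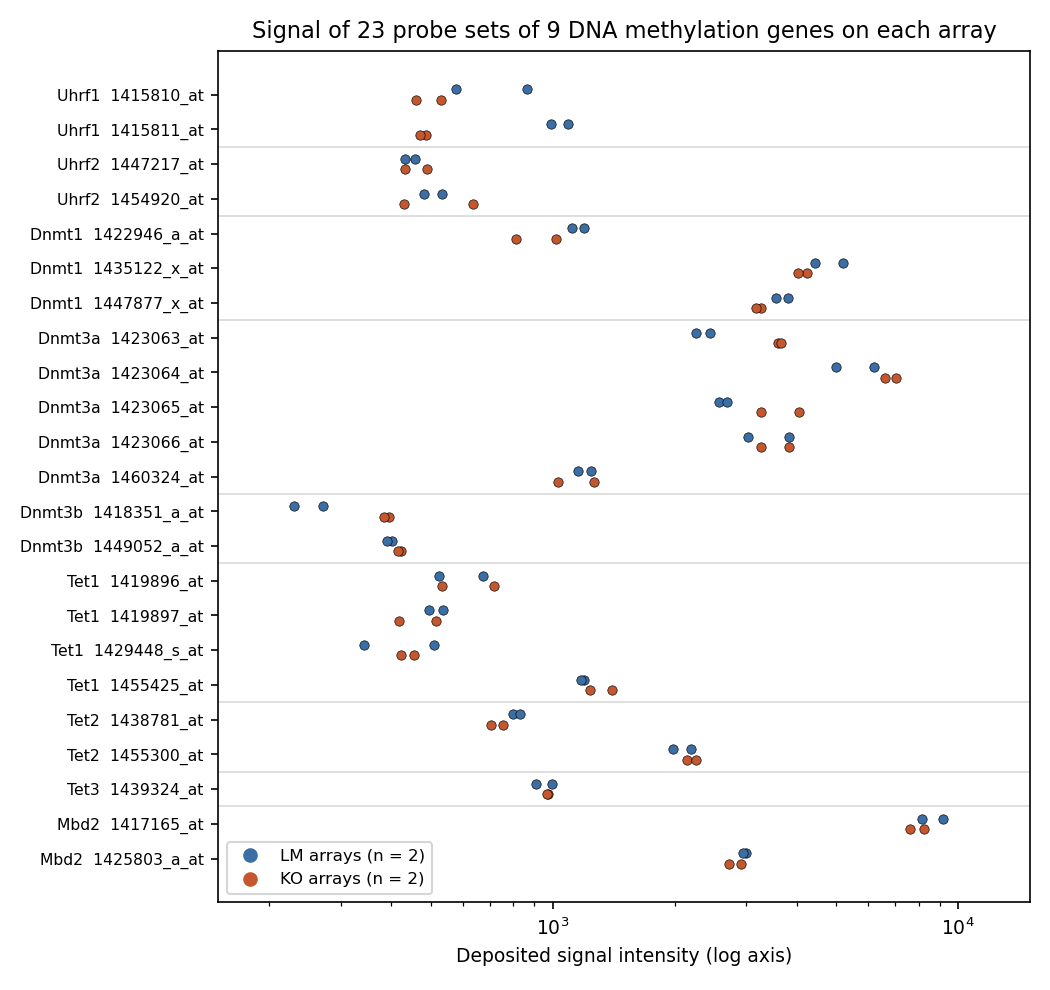
Deposited signal intensity (horizontal, log axis) of the 23 probe sets of the 9 genes, 1 row per probe set, with a point for each LM array (blue, n = 2) and each array labelled KO (orange, n = 2). The groups stand farthest apart in Uhrf1 1415811_at, where the LM arrays read 993 and 1091 and the arrays labelled KO 470 and 488.

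Dnmt1, the maintenance methyltransferase, was lower on the arrays labelled KO in each of its 3 probe sets, and it did not pass the test. Its differences, from -0.32 to -0.18, were far smaller than the -1.09 of the brighter Uhrf1 probe set. They lay nearer to the -0.50 of the dimmer one, whose interval included them. The brightest Dnmt1 probe set, 1435122_x_at, read 4423 and 5192 in LM, against 4236 and 4015 on the arrays labelled KO. The groups did not overlap, although LM replicate 1 and KO replicate 1 lay close together. The means were 12.22 ± 0.11 and 12.02 ± 0.04 (log2, SD, n = 2 each), and the difference was -0.20 ± 0.11 (SE, limma adjusted p = 0.690). Its 95% interval, -0.44 to 0.03, corresponds to a signal on the arrays labelled KO between 73.9% and 102% of the LM signal.

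The other Dnmt1 probe sets gave like values when every probe set was tested on its own. Probe set 1447877_x_at read 3554 and 3793 in LM, against 3263 and 3178 on the arrays labelled KO, a difference of -0.18 ± 0.11 (adjusted p = 0.792). Probe set 1422946_a_at read 1116 and 1195 in LM, against 813 and 1020.0 on the arrays labelled KO, a difference of -0.32 ± 0.19 (adjusted p = 0.748). In all 3 probe sets both arrays labelled KO were below both LM arrays. The first 2 named carry the suffix x_at, which the manufacturer gives to probe sets that may share probes with other transcripts, so 1422946_a_at is the one without that doubt.

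Whether Dnmt1 follows Uhrf1 was read from their fitted differences and array profiles, side by side. Relative to each gene's own mean over the 4 arrays (log2), Uhrf1 stood at 0.60 and 0.48 in LM, against -0.51 and -0.58 on the arrays labelled KO. Dnmt1 stood at 0.02 and 0.18 in LM, against -0.07 and -0.13 on the arrays labelled KO. By the brightest probe sets, the direction was shared and the size was not. There the Dnmt1 difference was 18.5% of the Uhrf1 difference on the log2 scale, and the 2 differences lay 0.89 apart. The share was 10.9% without LM replicate 2, 27.0% without LM replicate 1 and 29.3% with the mean of all probe sets. The gap was 0.76 to 1.01 with 1 array left out and 0.56 with all probe sets of a gene averaged. The lower limit of Dnmt1's 95% interval, -0.44 for its brightest probe set, lay above both Uhrf1 values. For 1422946_a_at the interval reached down to -0.73, which includes the -0.50 of the dimmer Uhrf1 probe set but not the -1.09 of the brighter. These Uhrf1 values are estimates with a spread of their own. The interval of the dimmer Uhrf1 probe set, -1.01 to 0.02, included every Dnmt1 difference, so by that probe set the genes cannot be told apart. Since Uhrf1 was chosen on this contrast, the gap has no test, and 4 arrays are too few for a correlation.

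**Figure D2:**
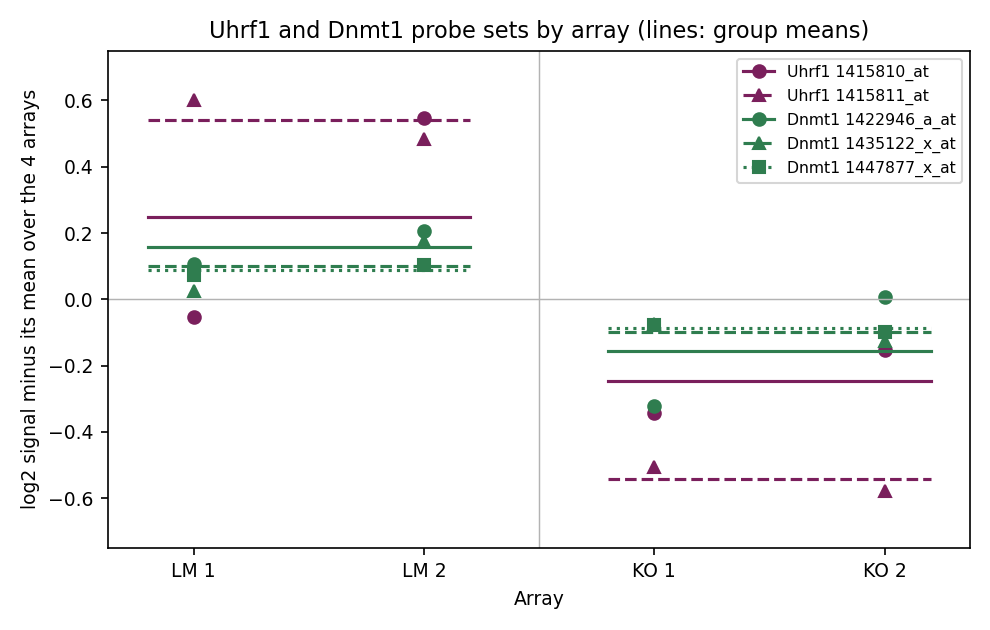
Log2 signal of each Uhrf1 (purple) and Dnmt1 (green) probe set minus its own mean over the 4 arrays (vertical), by array (horizontal), with lines at the mean of each group of 2 arrays. Both genes lie lower on the arrays labelled KO. The differences are -1.09 for Uhrf1 1415811_at, -0.50 for Uhrf1 1415810_at and -0.32 to -0.18 for the Dnmt1 probe sets.

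Likeness over the 4 arrays was measured as the root mean square distance between such profiles, as a description. This distance depends largely on the size of the KO minus LM difference, so ranks by it mostly restate that difference and are no separate evidence. The 5 genes nearest to Uhrf1 were Ccna2, the cyclin of S phase and mitosis, at a distance of 0.02 (log2), the kinetochore gene Spc25, the spindle gene Ckap2, the replication factor Mcm10 and Nlrx1, a mitochondrial member of the NOD-like family. Their differences ran from -1.11 to -0.97, with adjusted p-values of 0.0241 for Ccna2, the one that passed, and 0.0912 to 0.552 for the others. Dnmt1 ranked 1706 of 11254 genes by nearness to Uhrf1, at a distance of 0.45, ahead of the other members, of which Mbd2 came next at rank 2519. Tet3, with a difference of only 0.04, lay at a distance of 0.57. The genes nearest to Dnmt1 were Elof1, Atp5c1, Ggps1, Cdk9 and Fam174a, with differences of -0.22 to -0.18 and adjusted p-values of 0.620 to 0.893. Uhrf1 ranked 10138 by nearness to Dnmt1.

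None of the partners of maintenance methylation passed the test, against 0.275% of all genes tested. Of 11 tested members, 9 were below 0 and 4 had groups that did not overlap, all lower on the arrays labelled KO. Their median difference was -0.14, against 0.00 over all 11255 genes tested, of which 18.3% were lower without overlap. The list's median depended on the arrays used: it was -0.38 without LM replicate 1, -0.06 without LM replicate 2, -0.09 without KO replicate 1 and -0.25 without KO replicate 2, and -0.36 with the mean of all probe sets. At an unadjusted p below 0.05 lay 4 of the 11, against 8.40% of all genes tested. Pclaf, a PCNA-binding protein that takes part in bringing Dnmt1 to chromatin, stood at 9.86 and 9.85 in LM, against 8.96 and 9.14 on the arrays labelled KO (log2). Its difference was -0.81 ± 0.19 (adjusted p = 0.176). Pcna, the sliding clamp of the replication fork, differed by -0.36 ± 0.09 (adjusted p = 0.202). Ehmt1, a histone H3 lysine methyltransferase that methylates the DNA ligase Lig1 together with its partner Ehmt2, differed by -0.54 ± 0.19 (adjusted p = 0.426). Ehmt2 itself was at 0.16 and the Uhrf1 deubiquitinase Usp7 at -0.08.

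Genes of DNA replication and of mitosis were set beside both, because Uhrf1 and Dnmt1 are transcribed in cycling cells. Among 35 tested S-phase genes, 30 were below 0, against 5595 of all 11255 genes tested, and the median difference was -0.24. No overlap of the groups was seen for 17 that were lower and 2 that were higher on the arrays labelled KO, against 18.3% and 19.1% of all genes tested. None of the 35 passed in limma, against 0.275% of all genes tested, while 12 lay at an unadjusted p below 0.05, against 8.40%. The ribonucleotide reductase subunit Rrm2 came nearest, at -0.93 ± 0.17 (adjusted p = 0.0521), followed by the histone mRNA binding protein Slbp at -0.56 ± 0.14 (adjusted p = 0.179) and the origin licensing factor Cdc6 at -1.13 ± 0.28 (adjusted p = 0.199). Only 2 of the 35, Pole (-1.32) and Cdc6, had a lower difference than Uhrf1, whereas 20 of the 35 had a lower difference than Dnmt1.

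Mitosis genes had a median difference of -0.91. Of 18 tested, 8 fell in limma, against 0.142% of all genes tested. This count was 6 without LM replicate 2 and 6 without KO replicate 2, 3 of 15 with the mean of all probe sets, where Top2a (-0.22) was not called, and 0 without the filter on dim genes or without the intensity trend. The proliferation marker Mki67 differed by -0.86 ± 0.10 (adjusted p = 0.00285), topoisomerase Top2a by -1.44 ± 0.18 (adjusted p = 0.00468) and the spindle motor Kif11 by -1.25 ± 0.17 (adjusted p = 0.00840). Uhrf1 lay within this group, with 8 of the 18 lower than it, and Dnmt1 lay outside it, above all 18. The summed signal of the 19 named mitosis genes was 20530 and 21470 in LM, against 9712 and 11049 on the arrays labelled KO. That of the 35 S-phase genes was 44919 and 43893 in LM, against 36018 and 37423 on the arrays labelled KO. These sums moved with Uhrf1, and their part in its difference was not tested. The list of cell cycle genes had already stood out on these arrays and is no independent support.

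**Figure D3:**
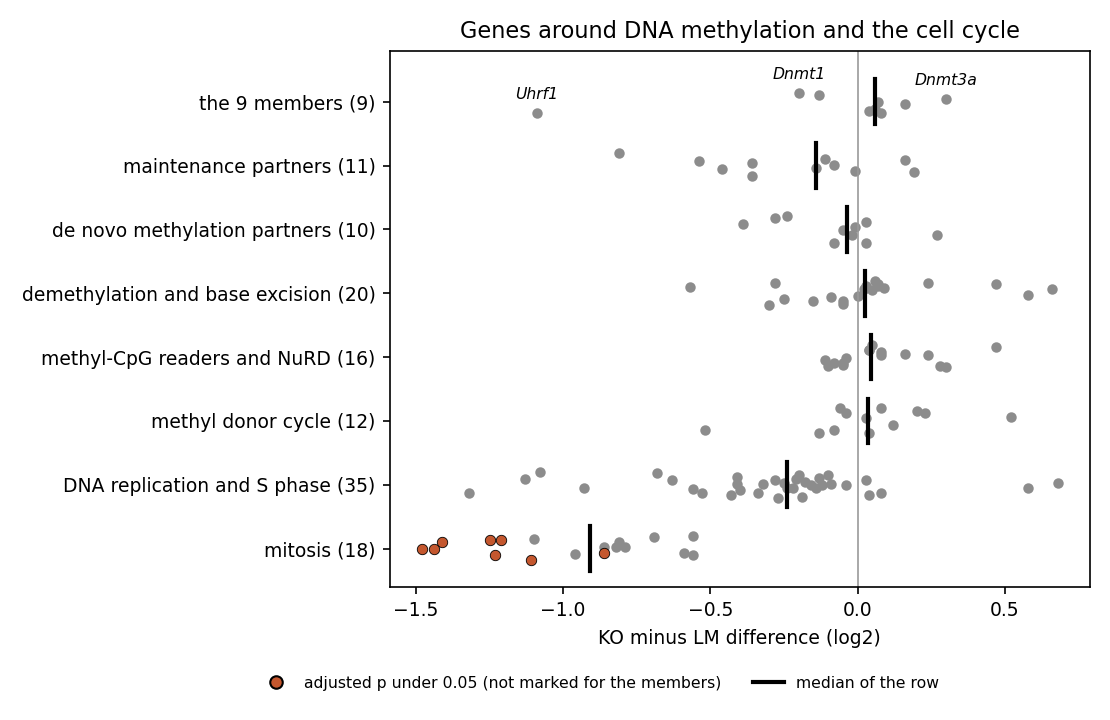
KO minus LM difference (log2, horizontal) of the 9 members and of the tested genes of 7 lists, 1 point per gene with the number tested in brackets. Orange points passed the limma test, which is not marked in the row of the 9 members, and black bars are medians. The mitosis genes lie lowest, with a median of -0.91, and Uhrf1 lies among their values while Dnmt1 lies near the S-phase median of -0.24.

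Uhrf2, the paralogue of Uhrf1, had no difference of that size. Its brighter probe set, 1454920_at, read 482 and 532 in LM, against 431 and 637 on the arrays labelled KO. The arrays labelled KO lay on either side of the LM arrays, and the difference was 0.06 ± 0.24 (SE, adjusted p = 0.984). Its 95% interval, -0.46 to 0.57, is wide but does not reach the -1.09 of Uhrf1. The other probe set, 1447217_at, read 458 and 432 in LM, against 489 and 433 on the arrays labelled KO, a difference of 0.05 ± 0.22. The sign for 1454920_at depended on the array left out, at -0.21 when KO replicate 2 was dropped and 0.32 when KO replicate 1 was, and it was -0.001 with median centring.

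Dnmt3a had the largest positive difference among the members by their brightest probe sets, without passing the test. With the mean of all probe sets Dnmt3b was above it, at 0.34 against 0.28. Dnmt3a, the main de novo enzyme of mature T cells, had its brightest probe set, 1423064_at, at 4995 and 6205 in LM, against 7034 and 6590 on the arrays labelled KO. The groups did not overlap, and the difference was 0.30 ± 0.10 (SE). Its 95% interval, 0.08 to 0.52, lay above 0, yet the gene did not pass after adjustment over all genes (adjusted p = 0.393). The arrays labelled KO stood at 123% of the LM level, with an interval of 106% to 143%.

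The 5 probe sets of Dnmt3a did not behave alike. Probe set 1423063_at read 2256 and 2443 in LM, against 3596 and 3647 on the arrays labelled KO. This was the largest difference among member probe sets outside Uhrf1, at 0.63 ± 0.12 (adjusted p = 0.0688 with every probe set tested on its own). Probe set 1423065_at read 2574 and 2691 in LM, against 3258 and 4050 on the arrays labelled KO, a difference of 0.47 ± 0.14 (adjusted p = 0.302). The groups were thus apart for 3 of the 5. Probe set 1423066_at overlapped, at 3027 and 3818 in LM, against 3828 and 3266 on the arrays labelled KO, a difference of 0.07 ± 0.13. Probe set 1460324_at also overlapped, at 1154 and 1243 in LM, against 1030 and 1268 on the arrays labelled KO, a difference of -0.05 ± 0.18. The mean of all 5 gave 0.28 (adjusted p = 0.412).

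Dnmt3b, the second de novo enzyme, was dim, with 1 of its probe sets the lowest of the 23. Its brighter probe set, 1449052_a_at, read 402 and 390 in LM, against 422 and 415 on the arrays labelled KO. These lay apart by little, and the difference of 0.08 ± 0.22 had an adjusted p of 0.968. The dimmer one, 1418351_a_at, read 230 and 272 in LM, against 395 and 385 on the arrays labelled KO, a difference of 0.60 ± 0.25 (adjusted p = 0.579). Both probe sets were higher on the arrays labelled KO without overlap, but they gave sizes far apart.

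**Figure D4:**
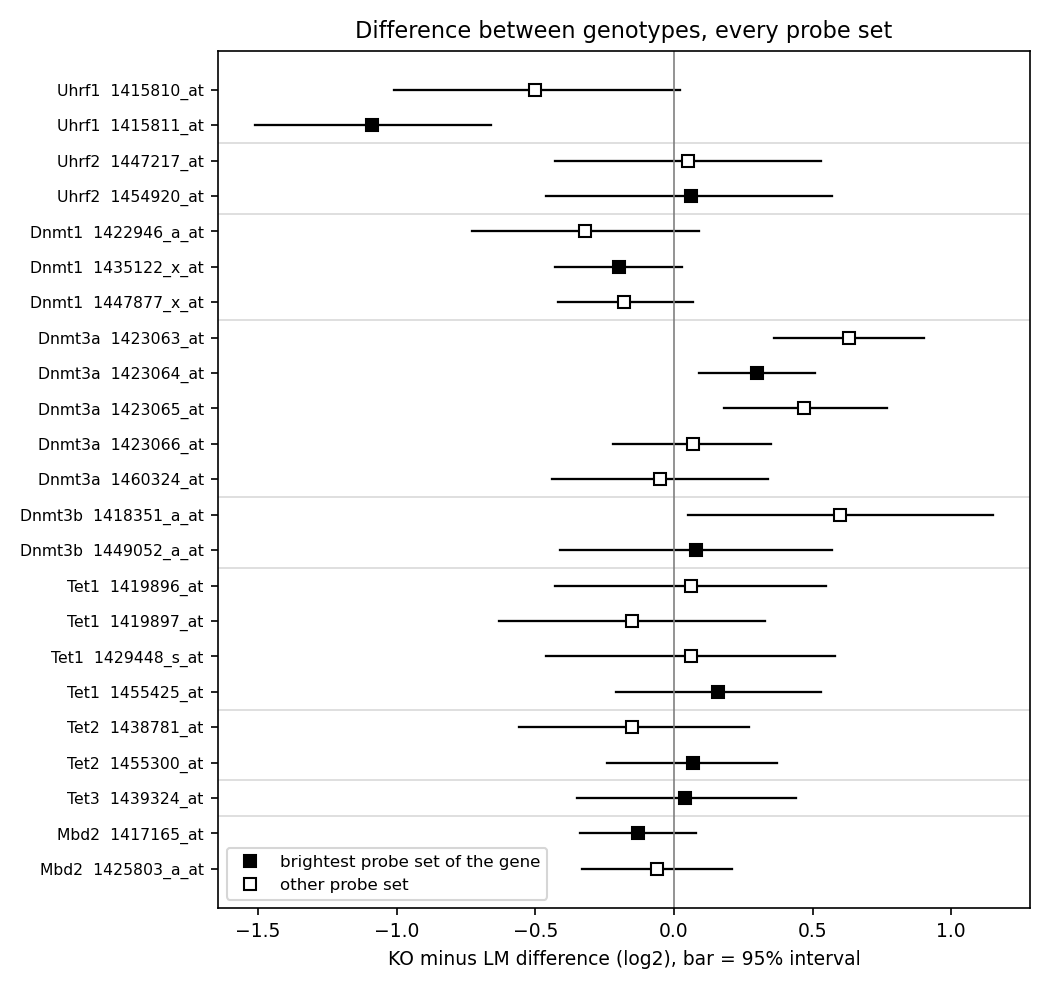
KO minus LM difference (log2, horizontal) of each of the 23 probe sets, with its 95% interval, from the fit with every probe set as a row of its own. Filled squares mark the brightest probe set of a gene and open squares the others. All Uhrf1 and Dnmt1 squares lie left of 0, and 4 of 5 Dnmt3a and both Dnmt3b squares lie right of it.

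The Tet dioxygenases showed no difference that stood clear of the spread, and no probe set of theirs passed. Tet1 had its brightest probe set, 1455425_at, at 1193 and 1174 in LM, against 1237 and 1397 on the arrays labelled KO, a difference of 0.16 ± 0.17 (adjusted p = 0.879). The groups did not overlap there, but they did for its other 3 probe sets, whose differences ran from -0.15 to 0.06. Tet2, a gene often mutated in blood cancers, had 1455300_at at 2188 and 1985 in LM, against 2144 and 2250 on the arrays labelled KO, a difference of 0.07 ± 0.14 (adjusted p = 0.956). Its dimmer probe set, 1438781_at, had the opposite sign, with 800 and 831 on the LM arrays, 705 and 756 on the arrays labelled KO and a difference of -0.15 ± 0.19. Tet3, with a single probe set, read 908 and 994 in LM, against 973 and 969 on the arrays labelled KO, a difference of 0.04 ± 0.18 (adjusted p = 0.983), or -0.02 with median centring. The 95% intervals of the brightest probe sets reached from -0.21 to 0.52 for Tet1, from -0.24 to 0.37 for Tet2 and from -0.34 to 0.43 for Tet3, so changes within these limits cannot be seen with 2 arrays a group.

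Mbd2, the reader of methylated sites, had the brightest probe set of all members, 1417165_at, at 9191 and 8118 in LM, against 7605 and 8210 on the arrays labelled KO. The groups overlapped, and the difference was -0.13 ± 0.10 (adjusted p = 0.822). It was -0.27 without LM replicate 2 and 0.01 without LM replicate 1, the array with the highest reading. Its other probe set, 1425803_a_at, read 2999 and 2947 in LM, against 2723 and 2912 on the arrays labelled KO, a difference of -0.06 ± 0.13, and after normalization its groups overlapped too.

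Counted together, 1 of the 9 members passed the limma threshold, against 0.275% of all genes tested. It was Uhrf1, whose call started the list, so nothing can be read from this count. Uhrf1 did not pass without LM replicate 1, without KO replicate 2, with both probe sets averaged, without the filter on dim genes or without the intensity trend. None of the other 8 passed, while 1 of them, Dnmt3a, lay at an unadjusted p below 0.05, against 8.40% of all genes tested. Of those 8, 1 was lower and 3 were higher without overlap of the groups, against 18.3% and 19.1% of all genes tested. With every probe set on its own, 0 of the 21 probe sets outside Uhrf1 passed, against 0.229% of all 21795 tested, and 4 lay at an unadjusted p below 0.05, against 7.97%. The groups did not overlap for 4 of the 21 on the lower side, against 18.5%, and for 6 on the higher side, against 18.3%. The 4 on the lower side were the 3 probe sets of Dnmt1 and 1 of Tet2, and 5 of the 6 on the higher side belonged to Dnmt3a and Dnmt3b. Probe sets of 1 gene share their target and are not separate observations.

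Other genes of the pathway gave no calls, against 0.275% of all genes tested. At that share, 0 calls in lists this short cannot be read as a result about the pathway. The counts of these genes at an unadjusted p below 0.05 stand against 8.40% of all genes tested. Among 10 tested partners of de novo methylation, 0 passed in limma and 1 lay at an unadjusted p below 0.05, with a median of -0.03. The histone H3.3 chaperone Daxx was at -0.39 ± 0.18 (adjusted p = 0.584), the histone methyltransferase Setd2 at 0.27 ± 0.16 and the Polycomb methyltransferase Ezh2 at -0.28 ± 0.18. Among 20 tested genes of demethylation and base excision, 0 passed and 1 lay at an unadjusted p below 0.05, with a median of 0.02. Gadd45g, a stress gene proposed to take part in demethylation, was at 0.66 ± 0.28 (adjusted p = 0.550), the DNA glycosylase Neil3 at -0.57 ± 0.28 and Idh1, which makes the 2-oxoglutarate that Tet enzymes use, at 0.58 ± 0.32.

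Among 16 tested methyl-CpG readers and NuRD subunits, 0 passed and 2 lay at an unadjusted p below 0.05, with a median of 0.04. Zbtb38, a zinc finger reader of methylated DNA, stood at 11.29 and 11.01 in LM, against 11.58 and 11.67 on the arrays labelled KO (log2), a difference of 0.47 ± 0.14 (adjusted p = 0.307). The NuRD helicase Chd4 was at 0.24 ± 0.11 and the subunit Mta3 at 0.28 ± 0.22. Among 12 tested genes of the methyl donor cycle, 0 passed and 1 lay at an unadjusted p below 0.05, with a median of 0.03. Ahcyl2, related to the enzyme that clears S-adenosylhomocysteine, was at 0.52 ± 0.20 (adjusted p = 0.458), Mat2b, a regulatory subunit of methionine adenosyltransferase, at 0.20 ± 0.14 and the glycine methyltransferase Gnmt at -0.52 ± 0.42.

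Markers of other cells that the sort could hold were summed beside these values. The 8 regulatory T cell markers summed to 12122 and 12514 in LM, against 17606 and 16101 on the arrays labelled KO, and all 8 were above background on every array. Izumo1r rose among them (0.58 ± 0.09, adjusted p = 0.0213), as did 0.133% of all genes tested, but not when KO replicate 1 or KO replicate 2 was left out (0.53 and 0.62), with median centring (0.53), without the filter on dim genes or without the intensity trend. Il2ra, which encodes the CD25 that the sort excluded, stood at 9.27 and 9.14 in LM, against 9.94 and 9.92 on the arrays labelled KO (log2), a difference of 0.72 ± 0.19 (adjusted p = 0.221). All 8 were above 0, against 5660 of all 11255 genes tested, with a median of 0.48. The groups did not overlap for 4 of them, all higher on the arrays labelled KO, against 19.1% of all genes tested. These 4 were Izumo1r, Il2ra, Nrp1 (1.01 ± 0.31, adjusted p = 0.330) and Ikzf2 (0.49 ± 0.13, adjusted p = 0.245). Foxp3 overlapped between the groups, at 8.97 and 8.30 in LM, against 9.67 and 8.55 on the arrays labelled KO (log2). So did Ctla4 (0.13 ± 0.20), Tnfrsf18 (0.21 ± 0.14) and Tnfrsf4 (0.04 ± 0.19). Izumo1r gave the largest part of the sum on every array, with signals of 4991 and 4883 in LM, against 7574 and 7162 on the arrays labelled KO. The 7 double-positive thymocyte markers summed to 3514 and 4243 in LM, against 4056 and 4181 on the arrays labelled KO. Rag1, Dntt, Cd8a, Cd8b1 and Arpp21 were above background on all 4 arrays and Rag2 on 3, with Ptcra below it on all arrays. Of the 6 tested, 5 were above 0, with a median of 0.10. Rag2 (0.52 ± 0.39, limma adjusted p = 0.815) and Cd8b1 (0.36 ± 0.23, adjusted p = 0.756) were higher on the arrays labelled KO without overlap. The share over all genes tested was 19.1%. The 5 NKT cell markers summed to 2544 and 3243 in LM, against 3198 and 3133 on the arrays labelled KO. Zbtb16, Il2rb and Slamf1 were above background on all 4 arrays, with Klrb1b and Tbx21 below it on all arrays. Without overlap of the groups, Zbtb16 was lower (-0.49 ± 0.36, limma adjusted p = 0.806) and Il2rb higher (0.40 ± 0.18, adjusted p = 0.584) on the arrays labelled KO. The shares over all genes tested were 18.3% and 19.1%. Slamf1, the brightest of these markers, overlapped (0.10 ± 0.19). The 4 gamma delta T cell markers summed to 845 and 812 in LM, against 875 and 835 on the arrays labelled KO. Sox13 and Maf were above background on all 4 arrays and Cd163l1 on 3, with Blk below it on all arrays. Maf was higher on the arrays labelled KO without overlap (0.34 ± 0.24, limma adjusted p = 0.804), while Sox13 (-0.26 ± 0.26) and Cd163l1 (0.10 ± 0.42) overlapped. The regulatory T cell sum was higher on the arrays labelled KO, as Dnmt3a was, whereas Uhrf1 was lower. The part of this sum in the differences of both genes was not tested.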

How the data were processed

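Total RNA of sorted CD4 single-positive thymocytes was extracted with Trizol, amplified (WT-Ovation Pico) and, per the labels' protocols, biotin-labelled. For each probe set and array the authors deposited a linear intensity, scaled so that the mean of each array without the outer 2% at each end was 500.0. How probes were summarised was not given in the sources used here.

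After removal of 64 controls from 45101 probe sets, 34945 of the rest had 1 gene symbol in the platform annotation. Of these, 34741 matched RefSeq and 0 symbols changed. Signals were taken as log2(value + 16), which understates changes of dim genes, and quantile normalized. Signals in the text are the deposited ones for probe sets, while summed and marker signals are normalized ones turned back to the linear scale. The probe set with the highest mean stood for its gene. Background was the 95th percentile, per array, of 80 probe sets of olfactory or vomeronasal receptors (a signal of 106 and 92 in LM and of 98 and 78 in KO). Genes above it on at least 2 arrays were tested, 11255 of 18193.

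KO minus LM differences were fitted over all tested genes with limma 3.58.1 in R 4.3.3 (lmFit, eBayes with an intensity trend), genotype being the only term. Two-sided p-values were Benjamini-Hochberg adjusted over all genes with a threshold of 0.05, and a second fit took every probe set as a row. The fit was tried on values simulated from its own model, which cannot check whether these arrays meet the model's assumptions. The number of arrays limits precision, and the median standard error was 0.22. Tables used Python 3.11.15 and pandas 2.3.3, and plots matplotlib 3.10.9. The members, gene lists and tests were chosen with earlier results of these data known. Genes named are the members, up to 3 of each list with the smallest p, the 5 nearest to Uhrf1 and to Dnmt1 and markers. Others, such as Ehmt2, Usp7, Pole, Rab4a and Hmgb2, were chosen after their values were seen. Same-numbered arrays did not deviate together (correlation -0.02 over 11255 genes), and the labels do not pair them. The alternatives are given in the closing section.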

Additional observations from a re-analysis of the deposited data

How the results depend on the processing

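The difference of Uhrf1 was below 0 in each of 15 alternatives. It was -1.02 with a pseudocount of 64, -0.79 with the mean of all probe sets, and -1.14 to -1.04 with 1 array left out. The filters, the eBayes settings, the replicate block and the fit of every probe set cannot move a fitted difference. Where groups do not overlap, as for Uhrf1 and Dnmt1, leaving out 1 array can hardly turn its sign. A kept direction is thus no separate support for either gene, and Uhrf1 was chosen for its difference. The Dnmt1 difference was below 0 and not past the threshold in each alternative, from -0.28 to -0.12 with 1 array left out and from -0.27 to -0.20 otherwise, with adjusted p-values of 0.553 to 0.999. The gap between both genes was 0.56 with the mean of all probe sets and 0.76 to 1.01 with 1 array left out. The count of members past the threshold was 1 (Uhrf1), or 0 without the filter on dim genes, without the eBayes intensity trend and with the mean of all probe sets. With 1 array left out it was 0 to 1, and 0 without LM replicate 1 and without KO replicate 2. Over all genes, 31 passed, against 81 with median centring, 0 without the filter on dim genes, 0 without the intensity trend and 35 to 85 with 1 array left out. In limma 1247 genes without the filter and 922 without the trend lay at an unadjusted p below 0.05. The replicate number as a block, where the arrays share only a number, gave 43 genes and kept Uhrf1 as the called member (-1.09). Uncalled members turned sign in some settings: Uhrf2 to -0.001 with median centring and from -0.21 to 0.32 with 1 array left out, Tet2 to -0.04 with the mean of all probe sets and from -0.01 to 0.15 with 1 array left out, Tet3 to -0.02 with median centring and from -0.03 to 0.12 with 1 array left out, and Mbd2 from -0.27 to 0.01 with 1 array left out. The cause of these shifts was not tested. A lone array left in a group is assumed to vary like the other group. Differences smaller than the intervals given cannot be seen with 2 arrays a group.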

Other observations

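Germline genes that somatic cells keep silent by methylation of their promoters were looked at as a list. Of 17 with a named probe set, 13 were below background on all 4 arrays, among them Dazl, an RNA-binding protein of germ cells, and the helicase Ddx4. Only 3 could be tested, and 0 passed in limma, with 0 at an unadjusted p below 0.05. The shares over all genes tested were 0.275% and 8.40%. Brdt, a bromodomain protein of the testis, was the brightest, at 856 and 951 in LM, against 1234 and 732 on the arrays labelled KO. The arrays labelled KO lay on either side of the LM arrays, and the difference was 0.07 ± 0.24 (adjusted p = 0.973). Mov10l1, a helicase of the piRNA pathway, was at 6.56 and 6.93 in LM, against 6.93 and 7.76 on the arrays labelled KO (log2), a difference of 0.60 ± 0.43 (adjusted p = 0.801). Sycp3, of the meiotic chromosome axis, differed by 0.12 ± 0.50 (adjusted p = 0.984).

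Members of the E2F family, which bind the promoter words searched above, differed in sign on these arrays. E2f2 was at -0.68 ± 0.20 (adjusted p = 0.308) and E2f1 at -0.24 ± 0.17 (adjusted p = 0.808), while E2f3 was at 0.58 ± 0.19 (adjusted p = 0.394). The groups did not overlap for any of the 3, as for 18.3% of all genes tested on the lower side and 19.1% on the higher side. Cdc45, a helicase component loaded at origins, was at 0.68 ± 0.25 (adjusted p = 0.441), opposite to most S-phase genes. These genes were named after their values were seen.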
